A study of Mus musculus with 15 samples.

Results

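Ribosomal protein genes encode the proteins of the cytosolic ribosome, and their mRNAs were followed here through 18 h of interleukin-12 (IL-12) stimulation. Protein-coding mouse genes were chosen by symbol alone, namely *Rpl* or *Rps* followed by a digit, leaving out the S6 kinase genes whose symbols begin with *Rps6k*. The rule found 88 of the 35142 genes in the data, of which 35 carry a small subunit symbol and 53 a large subunit symbol. A further gene that meets the rule, *Rps4l*, is annotated but has no transcript in the files. By symbol, 73 of the 88 belong to the standard set of the ribosome (30 small and 43 large subunit proteins), 6 are paralogs of a standard gene, 7 are retrocopies, that is, copies of a parent's processed mRNA, and 2 encode other proteins named after one. How the 6 paralogs arose was not examined. Of the 88 genes, 82 passed the filter on low counts, including all 73 of the standard set. No measured value entered the choice.

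The cultures were dissociated cerebellar cells of wild-type C57BL/6 pups taken between postnatal days 0 and 4. At day 14 in vitro, 5 cultures were given the cytokine at 30 ng/ml and 5 at 100 ng/ml, as recombinant murine IL-12p70 (both of its chains joined, the bioactive form), and 5 stayed untreated and are called unstimulated. The sources do not say whether the 5 cultures of a group came from separate animals or platings, so a p-value here measures only the spread between these cultures. Polyadenylated RNA was sequenced, with 25746096 to 38435850 reads assigned per culture. Although the cell type is labelled as neurons, the summed level of 15 cerebellar neuron markers was 200 to 263 TPM, the abundance per transcript length scaled to a fixed total, in unstimulated cultures. Markers of microglia summed to 8976 to 12643 TPM, of the oligodendrocyte lineage to 6727 to 9976 TPM and of astrocytes to 4088 to 4548 TPM in the same cultures. The values below therefore belong to a mixed culture, and in such bulk samples fewer cells of a type and less RNA per cell cannot be told apart.

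Each ribosome holds one copy of nearly every ribosomal protein, and cells keep the mRNAs of these proteins abundant and close to each other in amount. In mammals these mRNAs begin with a run of pyrimidines, the terminal oligopyrimidine tract, through which the kinase complex mTORC1 and the RNA-binding protein LARP1 control how well they are translated. mTORC1 also acts through S6 kinase, which phosphorylates the ribosomal protein encoded by *Rps6*. Levels of mRNA, as measured here, report neither phosphorylation nor translation.

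Stretches of 30 bases around the annotated start show whether this tract is present in the genes on which the results turn. They were read from the RefSeq promoter table on GRCm38.p6, which holds 64 of the 88 genes, and capitals mark the tract, taken as a C followed by at least 7 pyrimidines on the transcribed strand within 25 bases of the start. The annotated start is not always the true one, and the tract began between 20 bases before it, in *Rpl5*, and 14 bases after it, in *Rpl11*. The search ended 25 bases after the start, and a run that reached this bound was cut there. In *Rpl11* the capitals therefore stop although pyrimidines follow. The first 4 genes encode proteins with known regulatory roles, the next 2 are a parent and its retrocopy, and the last 3 are the genes that rose at 100 ng/ml.
Rps6 (chr4:86857347-86857376, minus strand): aagtcgggCCTCTTTTTCgtgacgcctccc
Rpl5 (chr5:107900500-107900529, plus strand): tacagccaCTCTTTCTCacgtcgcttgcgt
Rpl11 (chr4:136053358-136053387, minus strand): ccggaagtCTCCCTCTCTCttcctgttctc
Rpl13a (chr7:45128722-45128751, minus strand): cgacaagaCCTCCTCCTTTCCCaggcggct
Rps27 (chr3:90213629-90213658, minus strand): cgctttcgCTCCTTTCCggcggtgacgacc
Rps27rt (chr9:114982720-114982749, minus strand): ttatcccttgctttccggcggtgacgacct
Rpl36al (chr12:69184048-69184077, minus strand): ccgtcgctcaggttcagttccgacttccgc
Rpl22l1 (chr3:28805503-28805532, plus strand): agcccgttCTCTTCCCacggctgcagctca
Rps2 (chr17:24720053-24720082, plus strand): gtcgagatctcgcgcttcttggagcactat

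Such a run was found in 33 of the 64 ribosomal protein genes in the table (51.6%), with a median length of 10 bases, and in 4770 of all 27025 genes (17.7%). Among other listed genes in the table it was found in 38.5% of the list made up mainly of translation factors. The share was 20.3% of the mitochondrial ribosomal proteins, 14.3% of the mTORC1 pathway and 9.09% of the ribosome biogenesis genes. Of the 3 genes that rose, *Rpl22l1* has it and *Rpl36al* and *Rps2* do not, which says only that these letters are not in this window. The tract was defined after the data had been seen, and a match is a description of the letters and not evidence of regulation.

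In unstimulated cultures the standard set lay in a narrow band of mRNA levels. Its median was 902 TPM, and the 90th percentile was 2.46 times the 10th. The order was led by *Rpl41*, which encodes a very short peptide of the large subunit, at 4271 ± 177 TPM (SD, n = 5), followed by *Rpl13a* at 2073 ± 106 TPM. *Rps29* at 1678 ± 119 TPM, *Rps14* at 1637 ± 78.9 TPM and *Rps12* at 1526 ± 92.7 TPM came next, and these 3 neighbours did not differ beyond their spread. Small subunit genes of the standard set had a median of 976 TPM and large subunit genes one of 851 TPM. The sum over the large subunit was 1.39 ± 0.0138 times that over the small subunit in unstimulated cultures and 1.38 ± 0.0101 and 1.38 ± 0.00331 times with 30 and 100 ng/ml (SD, n = 5 each).

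Outside the standard set the levels spread from those of the standard genes down to 0. Of the retrocopies, *Rps27rt* reached 1122 ± 97.8 TPM, *Rpl35rt* 575 ± 39.2 TPM and *Rpl10-ps3* 488 ± 54.2 TPM (SD, n = 5), all values that depend on how reads were divided with the parent. Of the paralogs, *Rps27l*, a p53-inducible relative of *Rps27*, reached 378 TPM, *Rpl36al* 311 ± 13.7 TPM and *Rpl22l1* 185 ± 12.0 TPM (SD, n = 5). *Rpl7l1* and *Rps19bp1*, which encode proteins that help build ribosomes and are not among the standard ribosomal proteins, stood at 84.5 ± 5.69 TPM and 31.9 ± 2.67 TPM. The lowest gene that passed the filter was *Rpl39l*, a paralog best known from testis, at 3.004 ± 1.24 TPM and 15 to 54 reads per culture. The 6 genes that did not pass were *Rpl10l*, a paralog of the testis, with 0 to 2 reads per culture, *Rpl3l*, a paralog of striated muscle, with 2 to 9 reads, and the retrocopies *Rpl27rt*, *Rpl9-ps6*, *Rps18-ps6* and *Rps23rg1*, with unstimulated means of 0.268, 0.113, 0.229 and 0.787 TPM. They were not tested.

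**Figure D1:**
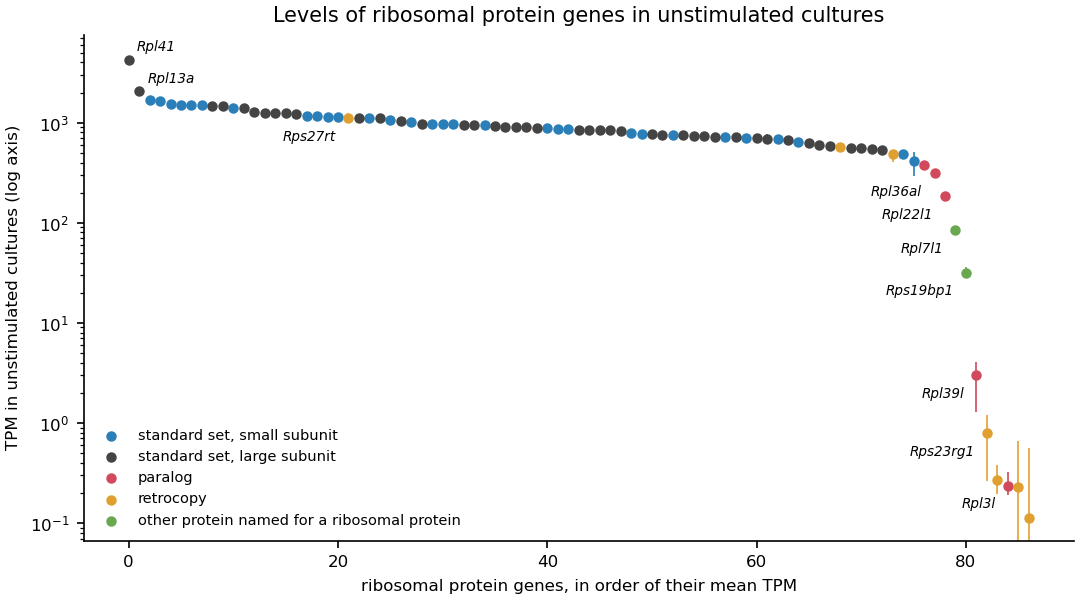
Mean TPM of each ribosomal protein gene in the 5 unstimulated cultures (log axis), in order of level. Bars run from the lowest to the highest culture, and colours give the class of gene. *Rpl10l* is at 0 and is not drawn. The standard set spans about one order of magnitude below *Rpl41* at 4271 TPM, and the untested paralogs and retrocopies lie below 1 TPM.

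Together the 88 genes took 2.27% ± 0.114 of the reads in unstimulated cultures, with single cultures between 2.15% and 2.42%. The share was 2.27% ± 0.111 at 30 ng/ml (2.12% to 2.40%) and 2.44% ± 0.159 at 100 ng/ml (2.28% to 2.63%; SD, n = 5 each). The 3 ranges overlapped. The genes are short, with a median transcript length of 605 bases against 2448 bases over all genes tested, so that on the TPM scale the shares were 7.78% ± 0.277, 7.79% ± 0.325 and 8.22% ± 0.393.

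Ribosomal protein mRNAs moved together from culture to culture. Each gene's log2 CPM, its read count scaled to the library size and the scaling factor of the culture, was set against its own mean over the 15 cultures, and the median of these differences over the 82 genes gives each culture's position. In unstimulated cultures 1 to 5 it was -0.12, -0.01, 0.03, 0.09 and -0.11. With 30 ng/ml it was -0.14, -0.08, -0.02, 0.04 and -0.01. With 100 ng/ml it was 0.18, -0.02, 0.14, 0.06 and -0.02. Cultures 1 and 3 at 100 ng/ml were therefore high for nearly the whole family, with 80 and 82 of the 82 genes above their own mean. Unstimulated culture 4 and culture 4 at 30 ng/ml were high for most of the family, with 77 and 74 genes above their mean. Cultures 2, 4 and 5 at 100 ng/ml had 32, 67 and 30 such genes, and their medians lay within the range of the unstimulated cultures. Culture 1 at 30 ng/ml had 0 of 82 genes above their mean, and the 3 groups overlapped.

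**Figure D2:**
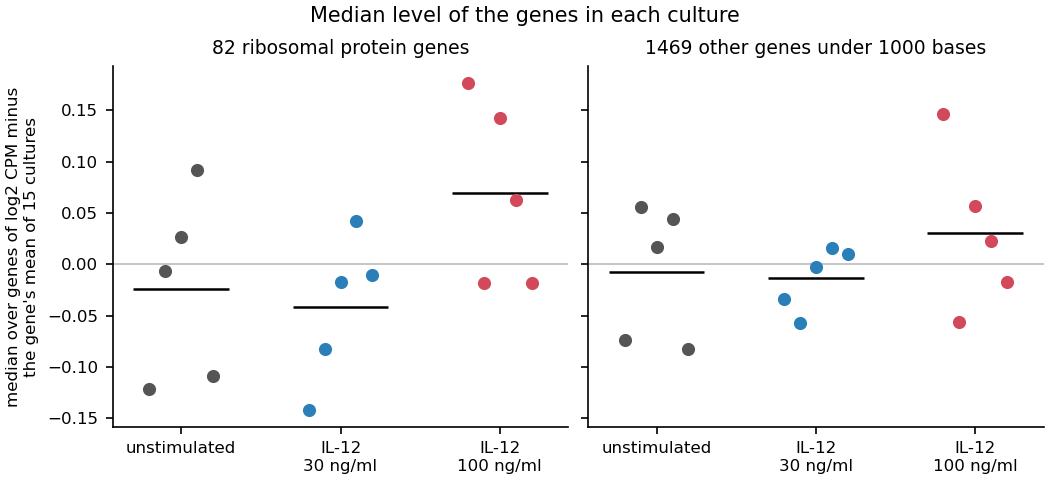
Median over genes of log2 CPM minus the gene's mean of 15 cultures, for the 82 ribosomal protein genes (left) and for 1469 other tested genes with transcripts under 1000 bases (right). Points are cultures and bars group means. Cultures 1 and 3 at 100 ng/ml stand at 0.18 and 0.14 on the left, and the groups overlap in both panels.

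The mean correlation between pairs of the 82 genes over the 15 cultures was 0.683, and within groups 0.680, against 0.377 for 78 mitochondrial ribosomal protein genes and 0.00103 over all genes tested. These are descriptions over cultures in which all genes share a library, its depth and its composition. Over all genes, correlations of both signs average out, so that value does not mean an absence of shared movement. For the 66 genes that share at most 50% of their coding words with another gene the mean was 0.722. The genes most like the median of the family were *Rpl11*, *Rpl19* and *Rps3* (r = 0.985, 0.980 and 0.975, n = 15 cultures), and the least alike were *Rpl10* (r = 0.126) and its retrocopy *Rpl10-ps3* (r = 0.213), described below. Other short genes followed part of the same order, with medians of 0.15 and 0.06 in cultures 1 and 3 at 100 ng/ml. Their part in the position of the ribosomal protein genes was not tested, apart from the length correction given with the comparisons.

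At 100 ng/ml, *Rpl36al*, *Rpl22l1* and *Rps2* rose against unstimulated cultures, by 1.17-fold, 1.18-fold and 1.14-fold. They were the 3 of 82 genes (3.66%) called higher at a false discovery rate (FDR) under 0.05 in edgeR's quasi-likelihood test with Benjamini-Hochberg adjustment over the 15360 genes tested, of which 5.83% were called higher. None was called lower in edgeR, against 3.93% of all genes, none was lower at an unadjusted p under 0.05, against 11.9%, and none was lower in DESeq2, against 5.74%. The share of called genes was thus no larger than the background, and the changes were small. Most genes shared the direction, since 77 of the 82 genes (93.9%) had a log2 fold change above 0, against 48.7% of all genes, and 21 (25.6%) were higher at an unadjusted p under 0.05, against 13.7%. The genes are not independent of each other, as the shared movement of cultures shows.

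*Rpl36al* (ENSMUSG00000049751, GRCm39 chr12:69228230-69231234, minus strand) is an autosomal copy of the X-linked *Rpl36a* and encodes a nearly identical protein of the large subunit. Unstimulated cultures 1 to 5 had 61.5, 69.7, 69.6, 75.3 and 65.3 CPM, those given 30 ng/ml 67.2, 71.9, 73.7, 75.1 and 71.8 CPM, and those given 100 ng/ml 88.9, 79.2, 80.9, 76.5 and 74.3 CPM. At 100 ng/ml, 4 of 5 cultures lay above every unstimulated culture, culture 5 lay below unstimulated culture 4, and culture 1 was the highest. The log2 fold change was 0.23 (SE 0.056, FDR 0.0166), and the gene was called in 28 of the 28 alternatives that kept the threshold of an FDR under 0.05. FDRs in these ran from 0.00298 to 0.0496, the highest without unstimulated culture 1. In the main fit *Rpl36al* was not called at an FDR under 0.01 or at the study's thresholds, where 0 of the 82 genes passed. With 30 ng/ml its log2 fold change was 0.08 (FDR 0.467).

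The coding sequence of *Rpl36al* shares 93.8% of its 31-base words with the predicted gene *Gm49383*, so the program that made the counts had to divide reads between them. *Gm49383* held 5.16 to 9.09 CPM, and 100 ng/ml gave a log2 fold change of 0.04 (SE 0.126, FDR 0.868). The sum of both genes was 75.4 ± 4.78 CPM in unstimulated cultures (68.7 to 80.8), 79.9 ± 2.93 CPM at 30 ng/ml (75.5 to 82.8) and 87.3 ± 5.38 CPM at 100 ng/ml (83.4 to 95.9; SD, n = 5 each). On this sum, which was formed after the values had been seen, the cultures at 100 ng/ml did not overlap with unstimulated cultures, which was so for none of the 82 genes taken singly and for 4.34% of all genes.

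*Rpl22l1* (ENSMUSG00000039221, GRCm39 chr3:28859585-28861573, plus strand) is the paralog of *Rpl22*, and both proteins, which can replace each other in the ribosome, also bind RNA outside it. Unstimulated cultures 1 to 5 had 42.6, 48.4, 42.8, 43.4 and 40.3 CPM, those given 30 ng/ml 43.6, 43.3, 48.7, 51.2 and 48.6 CPM, and those given 100 ng/ml 54.7, 55.4, 51.7, 50.7 and 43.8 CPM. Again 4 of 5 cultures at 100 ng/ml lay above every unstimulated culture, and culture 5 lay among them. The log2 fold change was 0.24 (SE 0.067, FDR 0.0337), and 0.11 at 30 ng/ml (FDR 0.337).

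*Rps2* (ENSMUSG00000044533, GRCm39 chr17:24937080-24940904, plus strand) encodes a small subunit protein at the entry of the mRNA channel and is the one called gene of the standard set. Unstimulated cultures 1 to 5 had 716, 784, 764, 803 and 740 CPM, those given 30 ng/ml 769, 769, 829, 840.0 and 861 CPM, and those given 100 ng/ml 912, 769, 950.5, 877 and 835 CPM. At 100 ng/ml culture 2 lay within the unstimulated range and the other 4 above it. The log2 fold change was 0.19 (SE 0.056, FDR 0.0386), and 0.10 at 30 ng/ml (FDR 0.329).

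*Rpl22l1* and *Rps2* were each called in 18 of the 28 alternatives at an FDR under 0.05, with FDRs of 0.00843 to 0.0891 and 0.00567 to 0.1001. Leaving out unstimulated culture 1, 3 or 5 or culture 1, 3 or 4 at 100 ng/ml left 1 called gene, *Rpl36al*, and leaving out culture 2 at 100 ng/ml gave 13. DESeq2 called 5 genes higher (6.10%, against 7.05% of all genes), adding *Rpl14* (edgeR FDR 0.0519) and *Rpl8* (edgeR FDR 0.0572), which are named because of this result.

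**Figure D3:**
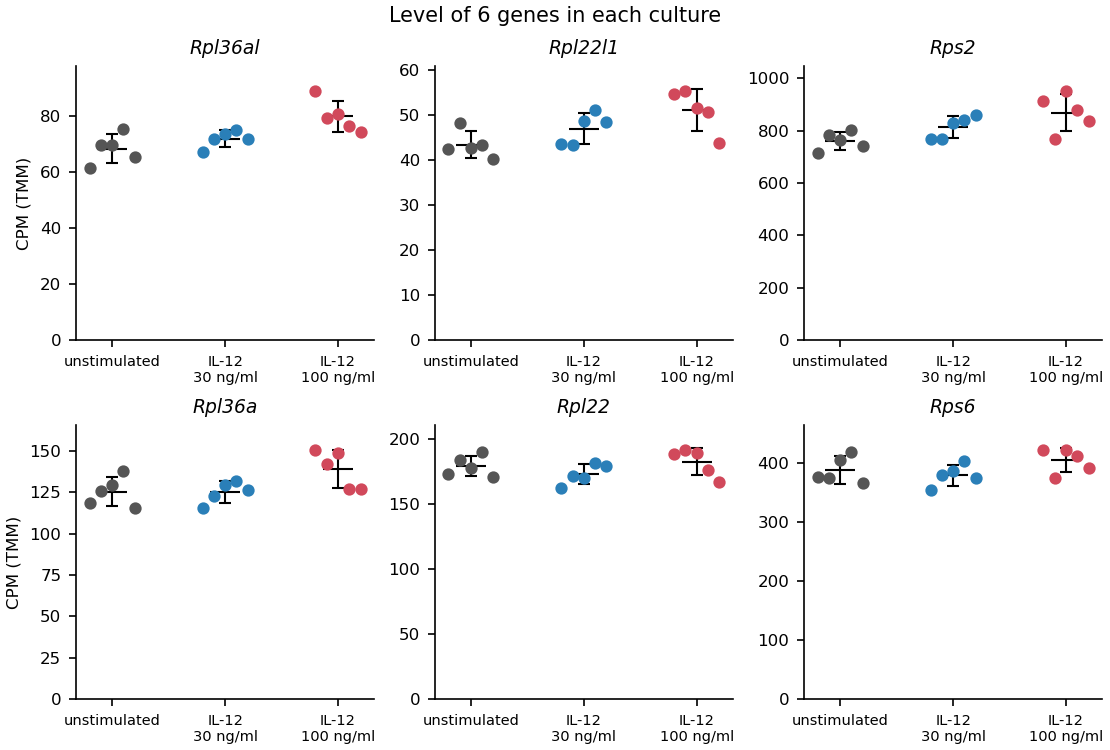
CPM of *Rpl36al*, *Rpl22l1* and *Rps2*, the 3 genes called higher at 100 ng/ml, and of *Rpl36a*, *Rpl22* and *Rps6* in each culture, with the mean and SD of each group (n = 5). In the upper row 1 culture at 100 ng/ml lies within the unstimulated range of each gene, and in the lower row 2 or more do.

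Over all 82 genes the median log2 fold change at 100 ng/ml was 0.08, with single genes from -0.06 to 0.24, against 0.00 over all genes tested. Both subunits moved alike, with medians of 0.08 for the 30 small and 0.08 for the 43 large subunit genes of the standard set. Other genes with transcripts under 1000 bases had a median of 0.03, and 59.9% of them lay above 0. Removing each culture's trend with gene length lowered the median of the ribosomal protein genes to 0.04, and it stayed between 0.04 and 0.11 in all 28 alternatives.

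The genes with known regulatory roles did not pass the test at 100 ng/ml. *Rps6*, whose product is the substrate of S6 kinase, had 376, 374, 406, 419 and 366 CPM in unstimulated cultures 1 to 5, 354, 380.2, 386, 403 and 374 CPM at 30 ng/ml and 422, 375, 422, 412 and 392 CPM at 100 ng/ml. The groups overlapped, and the log2 fold change was 0.06 at 100 ng/ml (SE 0.049, FDR 0.482) and -0.03 at 30 ng/ml (FDR 0.752). *Rpl5* and *Rpl11*, which with 5S rRNA form the particle that binds MDM2 when ribosome assembly fails, had log2 fold changes of 0.07 (FDR 0.432) and 0.10 (FDR 0.257). *Rpl13a*, known for silencing translation of inflammatory mRNAs after interferon-γ, had 488 ± 35.8 CPM without IL-12, 471 ± 37.1 with 30 ng/ml and 504 ± 38.4 with 100 ng/ml (SD, n = 5), with a log2 fold change of 0.05 at 100 ng/ml (FDR 0.693). *Rps27a*, which encodes a fusion of ubiquitin and a small subunit protein, had 347 ± 14.6, 334 ± 22.2 and 377 ± 22.8 CPM, with a log2 fold change of 0.12 at 100 ng/ml (FDR 0.156). *Rps4x*, the X-linked small subunit gene, had one of 0.10 (FDR 0.186).

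Of the 8 proteins that line the peptide exit tunnel or surround its opening, *Rpl19* (0.13, FDR 0.153) and *Rpl39* (0.12, FDR 0.256) had the higher log2 fold changes at 100 ng/ml, and *Rpl4* (0.02, FDR 0.823) and *Rpl17* (-0.02, FDR 0.788) the lower. None of the 8 passed the test. Around the mRNA channel, *Rps3* at its entry had 0.08 (FDR 0.391), and *Rps14*, *Rps26* and *Rps28* at its exit had 0.07, 0.10 and 0.03 (FDR 0.571, 0.206 and 0.851). *Rps2*, described above, was the one gene of these that passed.

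At 30 ng/ml none of the 82 genes was called. In edgeR 0 genes were higher, against 4.16% of all genes, and 0 were lower, against 3.71%. At an unadjusted p under 0.05, 0 were higher (11.9% of all genes) and 3 were lower (3.66%, against 10.8%), namely *Rpl17*, *Rpl23* and *Rpl35rt*, and DESeq2 called 1 gene lower, *Rpl17* (1.22%, against 5.48% of all genes). *Rpl17*, at the peptide exit, had 340.4, 348, 363, 374 and 331 CPM in unstimulated cultures and 298, 319.8, 328, 338.5 and 319 CPM at 30 ng/ml. Of the latter, 4 of 5 lay below every unstimulated culture and culture 4 lay among them, with a log2 fold change of -0.13 (SE 0.046, FDR 0.0871). The median over the 82 genes was -0.03, and 25 (30.5%) lay above 0, against 50.1% of all genes.

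**Figure D4:**
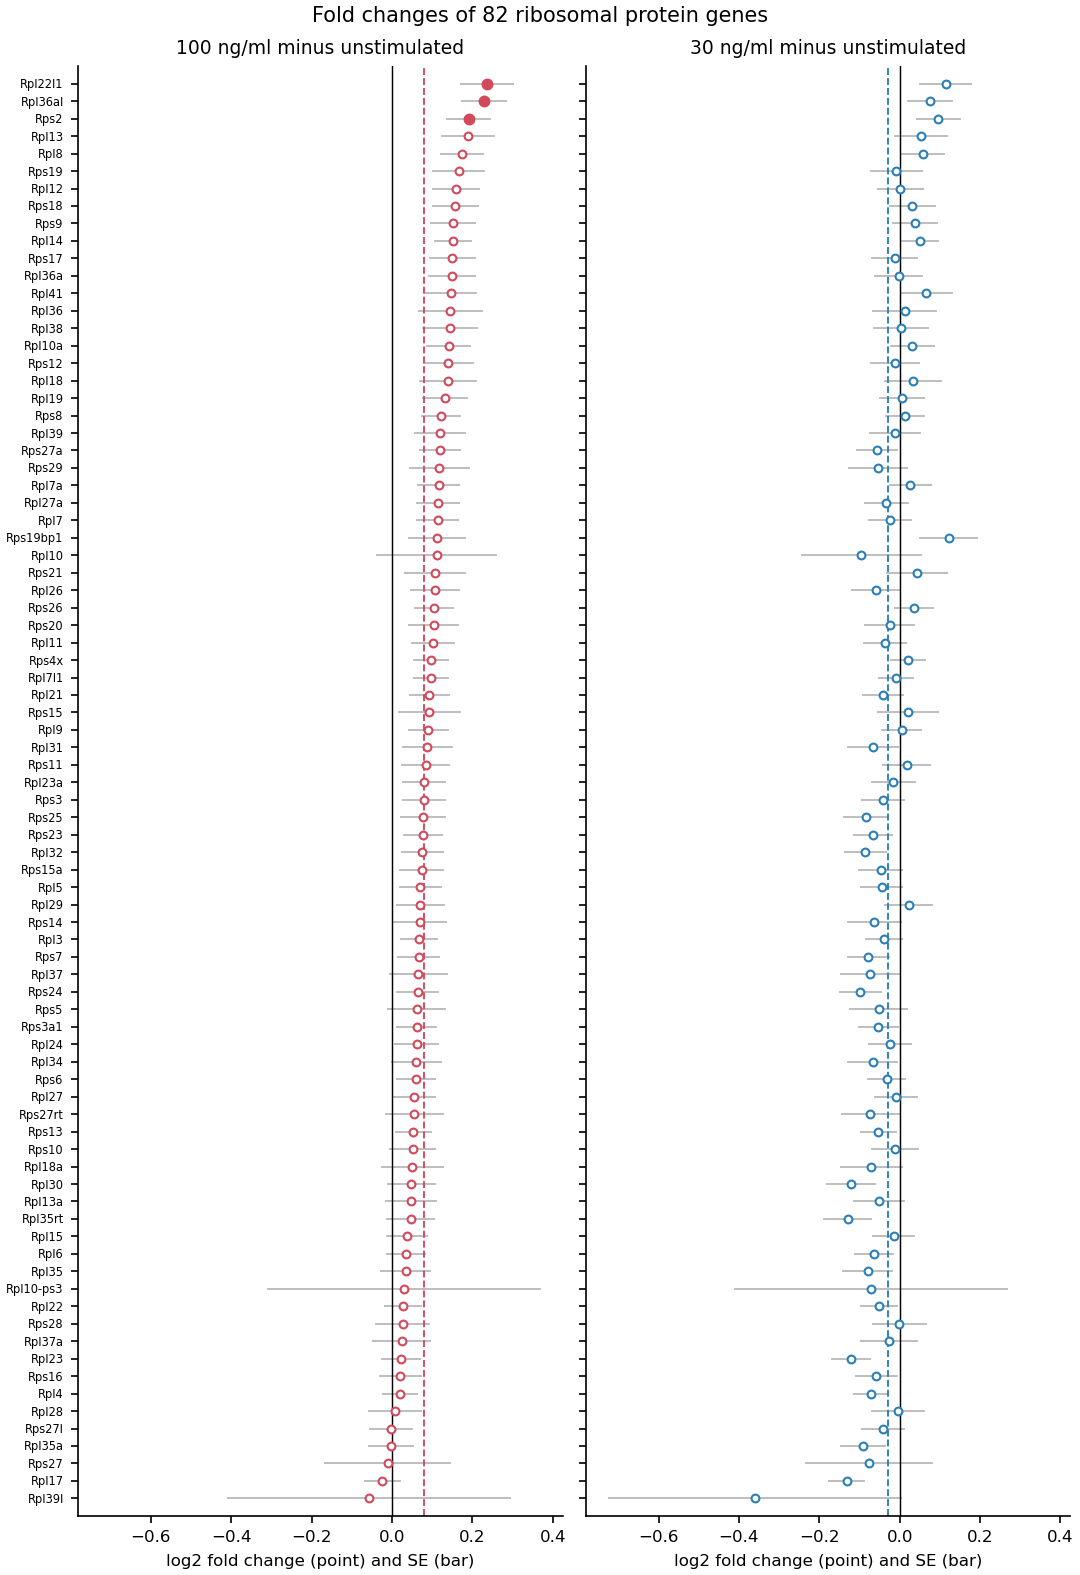
Log2 fold change of each of the 82 tested ribosomal protein genes at 100 ng/ml (left) and 30 ng/ml (right) against the same unstimulated cultures, with the SE as a bar, filled points for FDR under 0.05 and a dashed line at the median of the 82 genes. The median stands at 0.08 on the left and at -0.03 on the right, 3 points are filled on the left and 0 on the right.

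Between the concentrations, no gene was called. In edgeR 0 of 82 genes were higher at 100 than at 30 ng/ml, against 0.501% of all genes, 0 were lower, against 0.0781%, and DESeq2 called 0 higher, against 1.15%, and 0 lower, against 0.423%. At an unadjusted p under 0.05, 34 genes (41.5%) were higher, against 6.97% of all genes, and 0 were lower, against 5.69%. The log2 fold change was above 0 in 81 genes (98.8%), against 48.5% of all genes, with a median of 0.11 and *Rps19bp1* the exception at -0.01. In none of the 82 genes did every culture at 100 ng/ml lie above every culture at 30 ng/ml, which was so for 1.74% of all genes. *Rps27a* had the smallest p, with a log2 difference of 0.18 (FDR 0.168). Other genes under 1000 bases had a median of 0.04, with 66.9% above 0, and removing the trend with gene length lowered the median of the ribosomal protein genes to 0.07.

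When both concentrations were averaged and set against unstimulated cultures, 0 of 82 genes were called higher in edgeR, against 6.71% of all genes, and 0 lower, against 5.22%. At an unadjusted p under 0.05, 5 were higher (6.10%, against 14.2%), namely *Rpl36al*, *Rpl22l1*, *Rps2*, *Rpl14* and *Rpl8*, and DESeq2 called the first 3 of these (3.66%, against 7.88% of all genes). *Rpl36al* had a log2 fold change of 0.15 (FDR 0.052). The median was 0.02.

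Markers of other cells moved with the concentrations. Over all genes tested, edgeR called 4.16% higher and 3.71% lower at 30 ng/ml, and 5.83% and 3.93% at 100 ng/ml. Shares lower at an unadjusted p under 0.05 were 10.8% and 11.9%, and DESeq2 called 5.48% and 5.74% lower. At 30 ng/ml, 9 of the 13 tested microglial markers were lower, and their list summed to 7161 to 8959 TPM, below the 8976 to 12643 TPM of unstimulated cultures. At 100 ng/ml, 0 of 13 were called in edgeR, with 2 lower and 0 higher at an unadjusted p under 0.05 and 0 called in DESeq2, and the sum was 8569 to 11255 TPM. Astrocyte markers summed to 4792 to 5579 TPM at 30 ng/ml and 4519 to 4987 TPM at 100 ng/ml, with 3 of 11 higher at 30 ng/ml and 1 higher and 1 lower at 100 ng/ml. Oligodendrocyte lineage markers summed to 6727 to 8264 TPM and 5989 to 7277 TPM, with 2 and 4 of 12 lower. Fibroblast and meningeal markers summed to 423 to 566 TPM in unstimulated cultures, 448 to 536 TPM at 30 ng/ml and 523 to 671 TPM at 100 ng/ml, where 2 of 8 were higher. Neuron markers summed to 230 to 269 TPM at 30 ng/ml and 223 to 259 TPM at 100 ng/ml, with 1 higher and 2 lower of 14 tested at 30 ng/ml and 1 higher and 1 lower at 100 ng/ml. Most single neuron markers nevertheless had log2 fold changes below 0, with medians of -0.49 at 30 ng/ml and -0.31 at 100 ng/ml and 9 and 4 of 14 lower at an unadjusted p under 0.05, and DESeq2 called 5 and 2 lower. The sum held *Tubb3*, an abundant marker that rose (0.50, FDR 0.0012 at 30 ng/ml), beside *Calb1*, which fell (-0.53, FDR 0.0071). The Purkinje cell marker *Pcp2* did not pass the filter. Endothelial markers summed to at most 32.1 TPM, with 1 of 4 tested lower at each concentration and *Cldn5* listed at 0 in every culture. Between 100 and 30 ng/ml all 13 microglial markers had log2 fold changes above 0 (median 0.30). Of these, edgeR called 0 and DESeq2 1 higher, and 12 were higher at an unadjusted p under 0.05, against 6.97% of all genes. Above 0 were 8 of 8 fibroblast and meningeal, 11 of 14 neuron and 3 of 4 endothelial markers. It was 2 of 11 for astrocytes, with *Sox9* called lower (-0.29, FDR 0.0076), and 2 of 12 for the oligodendrocyte lineage. The part of these cells in the levels of ribosomal protein mRNAs was not tested.

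Paralogs were set against their related gene within each culture, which removes movements that both share. The first 60 coding bases of *Rpl36a* and *Rpl36al* show how their reads can be told apart, with capitals at the 11 bases that differ, and over the whole coding sequence 87.9% of the bases are identical.
Rpl36a, coding bases 1 to 60: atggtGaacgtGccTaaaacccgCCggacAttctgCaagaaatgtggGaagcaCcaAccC
Rpl36al, coding bases 1 to 60: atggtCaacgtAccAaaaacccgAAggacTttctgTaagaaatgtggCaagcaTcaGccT
*Rpl22* and *Rpl22l1* are farther apart, with 68.2% of the aligned coding bases identical and 22 of 60 differing in the first stretch that aligns without a gap.
Rpl22, coding bases 37 to 96: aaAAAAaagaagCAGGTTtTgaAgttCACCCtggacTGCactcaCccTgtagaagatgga
Rpl22l1, coding bases 19 to 78: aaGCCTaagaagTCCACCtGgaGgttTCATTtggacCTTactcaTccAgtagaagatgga

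The ratio of *Rpl22l1* to *Rpl22* on the TPM scale was 0.318, 0.348, 0.306, 0.294 and 0.307 in unstimulated cultures 1 to 5, 0.348, 0.331, 0.362, 0.358 and 0.347 at 30 ng/ml and 0.364, 0.337, 0.348, 0.366 and 0.344 at 100 ng/ml. Unstimulated culture 2 lay within the range of both stimulated groups and the other 4 below them. The log2 ratio was higher by 0.15 at 30 ng/ml (exact two-sided permutation test, p = 0.0238, adjusted p = 0.190) and by 0.16 at 100 ng/ml (exact permutation p = 0.0238, adjusted p = 0.190). *Rpl22* itself had 179 ± 7.84 CPM in unstimulated cultures, 173 ± 7.76 CPM at 30 ng/ml and 182 ± 10.4 CPM at 100 ng/ml (SD, n = 5), with a log2 fold change of 0.03 at 100 ng/ml (FDR 0.762).

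The ratio of *Rpl36al* to *Rpl36a* was 0.514 ± 0.0140 in unstimulated cultures (0.493 to 0.531), 0.542 ± 0.0111 at 30 ng/ml (0.530 to 0.556) and 0.546 ± 0.0208 at 100 ng/ml (0.510 to 0.561; SD, n = 5 each). Both stimulated groups overlapped with unstimulated cultures, with log2 differences of 0.08 (exact permutation p = 0.0159, adjusted p = 0.190) and 0.08 (exact permutation p = 0.0317, adjusted p = 0.190). *Rpl36a* had 125 ± 8.96, 125 ± 6.53 and 139 ± 11.6 CPM (SD, n = 5), and a log2 fold change of 0.15 at 100 ng/ml (FDR 0.125). Adjustment was over 24 tests, 8 pairs in 3 comparisons, and 0 of the 24 passed. The smallest exact p for 5 cultures against 5 is 0.00794, which adjusts to 0.190 for a single test of the 24, so that at least 4 tests would have to reach it for any to pass. Among the other pairs, *Rps27l* to *Rps27*, *Rpl39l* to *Rpl39* and *Rpl7l1* to *Rpl7* had exact p-values of at least 0.238.

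Retrocopies could not be separated from their parents with confidence. The coding sequences of *Rps27* and *Rps27rt* (255 bases) and of *Rpl10* and *Rpl10-ps3* (645 bases) are identical, and *Rpl35rt* differs from *Rpl35* by 1 substitution. Only the untranslated parts can tell the first 2 pairs apart. *Rpl10*, which encodes a protein near the peptidyl transferase centre, had 188, 358, 210.5, 181 and 173 CPM in cultures 1 to 5 at 100 ng/ml. *Rpl10-ps3* had 243, 25.7, 199, 251 and 235 CPM in the same cultures. Culture 2 was thus high for the parent and low for the retrocopy, whereas the sum of both was 431, 383, 409, 433 and 408 CPM. Over all 15 cultures the coefficient of variation was 21.8% for *Rpl10* and 28.5% for *Rpl10-ps3* but 7.37% for their sum. With both summed, the log2 fold change of *Rpl10* at 100 ng/ml went from 0.11 (SE 0.150) to 0.07 (SE 0.056, FDR 0.447). For *Rps27* the variation was 19.0%, for *Rps27rt* 9.13% and for the sum 8.40%, with a log2 fold change of the sum of 0.03 (SE 0.069, FDR 0.808). *Rpl35* with *Rpl35rt* gave 0.04 (SE 0.051, FDR 0.671) at 100 ng/ml and -0.10 (FDR 0.254) at 30 ng/ml.

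**Figure D5:**
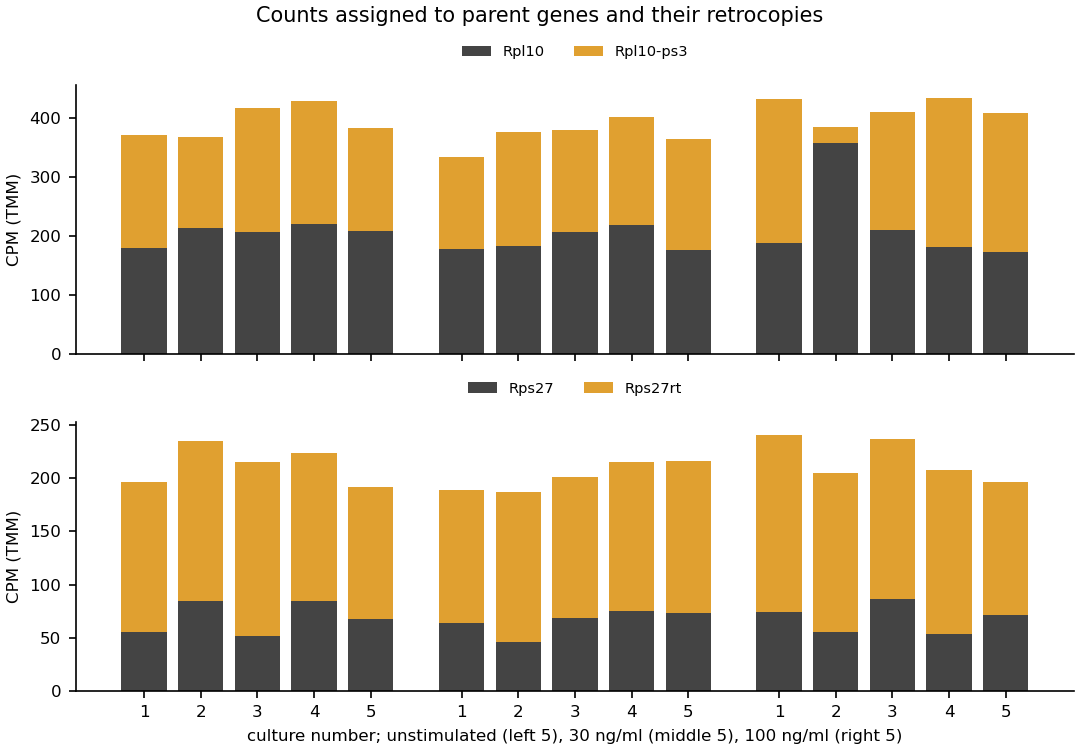
CPM assigned to *Rpl10* and *Rpl10-ps3* (top) and to *Rps27* and *Rps27rt* (bottom) in each culture, stacked so that the bar height is the sum. In culture 2 at 100 ng/ml *Rpl10* holds 358 CPM and *Rpl10-ps3* 25.7 CPM, while the sum of 383 CPM stays among those of the other cultures.

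Other genes of the translation machinery were taken from fixed lists. Beside their counts stand those over all genes tested, of which edgeR called 5.83% higher and 3.93% lower at 100 ng/ml. With 30 ng/ml these shares were 4.16% and 3.71%. Of the 7 ribosomal protein genes whose symbols fall outside the rule, *Rpsa*, which encodes a small subunit protein and laminin receptor, rose at 100 ng/ml from 673 ± 30.1 to 758 ± 46.5 CPM (SD, n = 5; log2 fold change 0.17, FDR 0.0355), and the median of the 7 was 0.12. At 30 ng/ml 0 of the 7 were called in edgeR or DESeq2, and 0 had an unadjusted p under 0.05. A list of 19 genes, mainly of translation factors, was chosen as having mRNAs of the same kind. Of the 19, 1 rose and 1 fell at 100 ng/ml, with a median of 0.05. These were *Eef1d*, a subunit of the elongation factor that reloads eEF1A with GTP (0.24, FDR 0.0022), and *Eif4b*, a helper of the initiation helicase (-0.17, FDR 0.0075), which also fell at 30 ng/ml (-0.19, FDR 0.0058).

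Of 24 genes of the mTORC1 pathway, 3 rose and 3 fell at 100 ng/ml, with a median log2 fold change of -0.03. The initiation factors *Eif4g1* (0.15, FDR 0.0165) and *Eif4a1* (0.16, FDR 0.021) rose, as did *Deptor*, an inhibitor of mTOR (0.35, FDR 0.0285). The stress-induced inhibitors *Sesn1* (-0.15, FDR 0.0095) and *Sesn2* (-0.15, FDR 0.0473) and the Rag GTPase gene *Rragd* (-0.16, FDR 0.0204) fell. With 30 ng/ml 1 of the 24 rose, *Eif4g1* (0.13, FDR 0.029), and 1 fell, *Sesn1* (-0.14, FDR 0.0135).

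Ribosome biogenesis genes, which make and process rRNA and assemble subunits, were described in the same way. Of 26, 5 rose and 0 fell at 100 ng/ml, and the median was 0.11. At an unadjusted p under 0.05, 15 were higher and 0 lower, against 13.7% and 11.9% of all genes. DESeq2 called 6 higher and 0 lower, against 7.05% and 5.74%. The 5 genes that rose included *Polr1b*, a subunit of RNA polymerase I (0.32, FDR 0.0011), and the assembly factors *Rrp12* (0.29, FDR 0.0015), *Ltv1* (0.22, FDR 0.0054) and *Tsr1* (0.18, FDR 0.0324). With 30 ng/ml 5 rose, among them *Dkc1*, the pseudouridine synthase of rRNA (0.25, FDR 0.0078), and *Nop14* fell (-0.18, FDR 0.022), with a median of 0.09. This list includes *Rps19bp1* and *Rpl7l1*, which did not pass at either concentration. Of 78 mitochondrial ribosomal protein genes, 4 rose at 100 ng/ml, against 5.83% of all genes, led by *Mrpl3* (0.17, FDR 0.0219) and *Mrps28* (0.31, FDR 0.0364). At this concentration 68 of the 78 (87.2%) had a log2 fold change above 0, against 48.7% of all genes. At an unadjusted p under 0.05, 20 were higher, against 13.7% of all genes, and 0 lower, against 11.9%. DESeq2 called 10 of the 78 higher and 0 lower, against 7.05% and 5.74% of all genes. With 30 ng/ml 2 rose, against 4.16% of all genes, namely *Mrps6* (0.22, FDR 0.0159) and *Mrpl37* (0.22, FDR 0.0182). Median log2 fold changes of the 78 genes were 0.08 and 0.04. Between 100 and 30 ng/ml 0 genes of these 5 lists were called in edgeR or DESeq2. At an unadjusted p under 0.05, 1 of the 7 genes outside the rule and 4 of the 19 mainly of translation factors were higher, and 0 lower. Of the mTORC1 genes 1 was higher and 2 lower, of the biogenesis genes 2 and 0, and of the mitochondrial genes 5 and 1. Over all genes 6.97% were higher and 5.69% lower at that p. Log2 fold changes were above 0 in 7 of 7, 18 of 19, 11 of 24, 18 of 26 and 59 of 78 genes, in the same order. Over all genes 48.5% were above 0. No test compared these lists with the ribosomal protein genes.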

How the data were processed

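RNA of 15 cultures was measured with stranded, poly(A)-selected libraries. As deposited, each culture's values were the authors' estimated counts and TPM for 121798 transcripts, with their lengths and effective lengths. The program behind these estimates is not given in the sources used here. The submitters' processing notes name FastQC 0.10.0, STAR 2.7.8a, featureCounts and GRCm39, and the study's methods describe gene counts with GENCODE M26, whereas the deposited values are per transcript. Groups were taken from the labels.

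Estimated counts were summed to 35142 genes with GENCODE M39 (99.0% of transcripts matched, and 0.677% to 0.712% of reads were unmatched) and rounded. The filter required 1 CPM or more in 2 or more cultures and left 15360 genes. They were scaled by TMM factors and fitted in 1 model of the 3 groups with the quasi-likelihood test of edgeR 4.0.16 in R 4.3.3, with Benjamini-Hochberg adjustment over all genes and calls at an FDR under 0.05. The contrasts against unstimulated share the same cultures. Mitochondrial transcripts held 3.35% to 4.14% of reads, TMM factors were 0.981 to 1.02 and the common biological coefficient of variation was 8.00%. The median SE of a log2 fold change was 0.058 for ribosomal protein genes and 0.070 over all genes. Every pair of replicates differed beyond sampling noise. Ratios of paralogs were tested by exact permutation (scipy 1.17.1). Sequences were compared with Biopython 1.88. The fitting scripts were tested on simulated data.

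Ribosomal protein genes, the other gene lists and the markers were chosen from general knowledge, with earlier results of these data known. Genes named are those called, those in paralog or retrocopy pairs, the 5 highest and 3 lowest by TPM, those that did not pass the filter, *Rps6*, *Rpl5*, *Rpl11*, *Rpl10*, *Rpl13a* and *Rps27a*, and up to 4 called genes of each list by FDR. Genes named by their role in the ribosome, and other genes outside this rule, were added after their values were seen. Alternatives were DESeq2 1.42.0, other scaling, filters, thresholds and samples, length and GC corrections, added pseudogene counts, a replicate block and each culture left out. Adding retrocopy counts and all alternatives of the ratios were chosen after seeing the data.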

Additional observations from a re-analysis of the deposited data

Results flagged for a closer look

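In 5 of 138 groups examined, a culture lay far from the other 4 of its group by Dixon's test at the 95% level, in which the gap to the nearest culture exceeds 0.71 of the group's range, and chance flags about 1 in 20 groups. *Rpl10* had 358 CPM in culture 2 at 100 ng/ml against 173 to 210.5 CPM in the others. In the same culture its retrocopy *Rpl10-ps3*, whose coding sequence is identical, had 25.7 CPM against 199 to 251 CPM, and the sum of both was 383 CPM against 408 to 433 CPM. *Rpl7*, a large subunit gene, had 475.5 CPM in culture 4 at 30 ng/ml against 442 to 451 CPM. The ratio of *Rpl36al* to *Rpl36a* was 0.510 in culture 3 at 100 ng/ml against 0.548 to 0.561. The sum of *Rpl35* and *Rpl35rt* was 177 CPM in culture 1 at 30 ng/ml against 198 to 203 CPM.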

How the results depend on the processing

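At 100 ng/ml, 3 genes were called. The count was 5 with DESeq2, with the GC trend removed, with the length trend removed and with library size alone, 1 with effective length as an offset and with only the groups compared, and 0 at an FDR under 0.01 and at the study's thresholds (unadjusted p up to 0.01, log2 change of 0.5 or more). With each culture left out it was 1 to 13, with 13 when culture 2 at 100 ng/ml was left out. At 30 ng/ml, DESeq2 and the length trend removed each gave 1 in place of 0, and leaving out cultures gave 0. Between concentrations, leaving out cultures gave 0 to 1. For the mean of both concentrations, with 0 genes called, the count was 4 with the length trend removed, 3 with DESeq2 and library size alone, 2 with the GC trend removed, 1 with TMM factors computed without the ribosomal protein genes or at least 10 counts in every culture, and 0 to 3 with cultures left out. The cause of these moves was not tested. The replicate number did not pair the cultures (4 of 15 same-numbered pairs had r over 0.1, and 5 cultures correlated best with their own number), and the fit with the replicate block called 2 genes at 100 ng/ml and 0 in the other 3 comparisons. No result changed direction while called, and the medians kept their sign in all alternatives but 1: for the mean of both concentrations the median was 0.02, and -0.001 without unstimulated culture 1. Of the log2 fold changes of named genes, 2840 values stayed on the same side of the threshold, 22 passed it newly and 20 no longer passed it. The adjusted p of the ratios could hardly pass in this design, so their alternatives say nothing about stability. With a median SE of 0.058, changes of a few percent in a gene could not be told from the spread between cultures. Some larger changes at 100 ng/ml were not called in edgeR, such as *Rpl13* at 1.14-fold (FDR 0.0866) and *Rpl8* at 1.13-fold (FDR 0.0572).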
